A study of Mus musculus with 6 samples.

Results

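The genes described here are the ligands and receptors of platelet-derived growth factor (PDGF) together with basic fibroblast growth factor and its main receptors. They are Pdgfa, Pdgfb, Pdgfc, Pdgfd, Pdgfra, Pdgfrb, Fgf2, Fgfr1, Fgfr2 and Fgfr3, 10 of the 19938 genes tested. They were chosen by name, as 2 growth factor families of the vessel wall of which the second contains known partners of the adhesion molecule L1CAM. Each had a single probe set annotated with its symbol alone, so no choice between probe sets was needed.

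Expression was measured on 6 Affymetrix arrays from mouse lung endothelial cells with a C57BL/6 background. In the control group (3 arrays) the cells carried the empty pcDNA3.1/Hygro(-) vector, and in the L1CAM group (3 arrays) they carried the same vector with full-length mouse L1CAM. All cultures were grown for 4 days to confluence in MCDB131 medium with 20% serum, heparin and a growth supplement from calf brain, a tissue rich in FGF. Both groups received this supplement, whose FGF content was not measured here. Replicates are described as independent experiments, but all arrays of a group carry the same code in the labels. Whether each stable transfectant was a pool or a clone is not stated. A difference between the transfectant lines therefore cannot be told apart from an effect of L1CAM. The p-values reflect how much cultures of these transfectants varied.

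In the vessel wall, PDGF-B released by endothelial cells recruits pericytes and smooth muscle cells, which carry PDGF receptor beta, while PDGF-A and PDGF-C act mainly through PDGF receptor alpha. PDGF-C and PDGF-D are secreted in a latent form with a CUB domain that must be cut off before they can bind, and PDGF-D then acts through receptor beta. Fgf2 encodes basic FGF, an endothelial mitogen that leaves the cell without a signal peptide, binds heparan sulfate and activates FGF receptors, among which FGFR1 is the main receptor of endothelial cells. L1CAM is known from neurons to bind and activate FGF receptors.

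The values are log2 expression values (RMA) per probe set. Because probe sets differ in how well they bind, a level is compared here only with the same gene on other arrays, and with the array medians (6.55 to 6.58) as a rough guide to brightness. L1cam itself read 6.50, 6.77 and 7.31 on the control arrays and 10.49, 10.60 and 10.73 on the L1CAM arrays, on the sides the labels name. L1CAM replicate 1 stood apart from the other arrays of its group, with correlations across genes of 0.995 and 0.995 against 0.999 between replicates 2 and 3. Genes are not independent replicates, so these are descriptions. The limma test called 2999 of the 19938 genes at a Benjamini-Hochberg adjusted p under 0.05, or 15.0%, with 8.19% lower and 6.85% higher in L1CAM cells. The count ran from 1033 without control replicate 2 to 4952 without L1CAM replicate 1.

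Among the 10 members, Pdgfc fell and no other member passed the test. That is 1 of 10 against a background of 15.0% of all genes, so the share of members called was not above that of the array as a whole. Pdgfc was also the single member whose L1CAM arrays did not overlap with its control arrays, as 34.6% of all genes did not. At an unadjusted p under 0.05 there were 2 members, Pdgfc and Pdgfra, against 29.0% of all genes. The median difference of the members was -0.05 on the log2 scale, beside 0.02 over all genes tested, and 4 members were higher and 6 lower in the mean.

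Pdgfc is the member on which these results turn, and Pdgfd is its closest counterpart in structure, as the other CUB-domain ligand. Their sequences directly before the annotated start are printed to show the region upstream of each gene. They are 250 bases long, on the plus strand of build GRCm38.p6 (RefSeq), at chr3:81036166-81036415 for Pdgfc and chr9:6168236-6168485 for Pdgfd. Capitals mark a match to CATTCC on either strand (the core of the MCAT element, which TEAD factors bind) or to TATAAA (the letters of the TATA box, at any position).
Pdgfc: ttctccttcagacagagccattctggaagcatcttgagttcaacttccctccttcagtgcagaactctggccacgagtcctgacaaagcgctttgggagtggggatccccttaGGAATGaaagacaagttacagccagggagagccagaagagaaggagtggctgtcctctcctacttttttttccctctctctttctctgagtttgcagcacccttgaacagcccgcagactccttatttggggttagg
Pdgfd: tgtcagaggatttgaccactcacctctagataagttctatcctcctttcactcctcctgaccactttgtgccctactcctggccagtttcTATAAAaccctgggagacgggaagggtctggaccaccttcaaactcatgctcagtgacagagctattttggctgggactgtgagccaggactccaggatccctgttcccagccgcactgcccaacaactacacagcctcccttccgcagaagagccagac

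The Pdgfc window had 1 match to CATTCC, as GGAATG on the printed strand, 137 to 132 bases before the start. The Pdgfd window had 0 matches to CATTCC and 1 to TATAAA, 160 to 155 bases before the start. Among 32851 promoter windows of the same length, 12.6% held CATTCC and 12.4% held TATAAA on either strand, so neither match is rare. The letters of 3 further motifs, searched on both strands, were not in either window. These were GGGCGG (GC box, in 32.7% of windows), CCGGAA (ETS, in 12.0%) and TGANTCA (AP-1, in 6.75%). Matches are descriptions of the sequence and not binding sites.

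Promoter windows were found for 7 of the 10 members. Pdgfc and Pdgfd, with 50.8% and 53.6% G or C, lay near the median window, which has 52.4%. Pdgfc and Pdgfd had 3 CpG each, fewer than the median of 6. The windows of Pdgfa and Fgf2 differed from them, with 19 and 28 CpG at the Pdgfa starts and 20 at Fgf2, and each held at least 1 GC box. Fgfr3 was like them, with 19 and 24 CpG, while Fgfr2 had 2 CpG and Pdgfra 4.

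The PDGF ligands were described first. Pdgfc, which encodes PDGF-C, read 9.34, 9.42 and 9.44 on the control arrays and 8.28, 7.76 and 7.95 on L1CAM replicates 1, 2 and 3. Every L1CAM array lay more than a log2 unit below every control array, and L1CAM replicate 1 was the highest of its group. The means were 9.40 ± 0.05 and 8.00 ± 0.26 (SD, n = 3 per group), and the difference was -1.40 (SE 0.12, 95% interval -1.68 to -1.12), 2.64-fold lower in L1CAM cells. The limma adjusted p was 0.000746. The gene remained called whichever array was left out, with differences from -1.54 to -1.28, and 86 of the 19938 genes had a larger fall. In bulk RNA, fewer cells that express a gene and less RNA per cell cannot be told apart.

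Pdgfb, the ligand that recruits pericytes, read 8.08, 7.88 and 7.87 on the control arrays and 8.99, 8.05 and 7.99 on L1CAM replicates 1, 2 and 3. L1CAM replicate 1 was high on its own, and the other L1CAM arrays lay within the control range. The difference was 0.40 (SE 0.24, limma adjusted p = 0.34), with a 95% interval from -0.17 to 0.96, or 0.888-fold to 1.95-fold. Without L1CAM replicate 1 it was 0.07 (limma adjusted p = 0.57). The distance of replicate 1 from the mean of replicates 2 and 3 was 0.97, wider than in 99.0% of all genes, for which the median distance was 0.10.

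Pdgfd, the ligand of receptor beta that also needs cutting, showed the same array high. It read 6.61, 6.37 and 6.63 on the control arrays and 7.05, 6.46 and 6.54 in L1CAM replicates 1, 2 and 3, around the array medians. The groups overlapped, and the difference was 0.14 (SE 0.15, limma adjusted p = 0.61). Without L1CAM replicate 1 the sign turned, to -0.042. The distance of replicate 1 from the other L1CAM arrays was 0.55 for Pdgfd and 0.42 for Pdgfc, wider than in 96.8% and 94.5% of all genes. So 3 of the 4 PDGF ligands were higher in replicate 1 than in replicates 2 and 3 by more than the median distance. A distance above the median is common by definition. Both receptors also passed it, but in the other direction, at -0.20 for Pdgfra and -0.22 for Pdgfrb. What sets this array apart is not given in the labels, and its part in these values was not tested.

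Pdgfa, which encodes the ligand of receptor alpha, read 11.21, 11.42 and 11.41 on the control arrays and 11.26, 11.32 and 11.08 on the L1CAM arrays. The groups overlapped, and replicate 1 was not apart, at 0.07 from the mean of the other L1CAM arrays. The difference of -0.13 (SE 0.09) did not pass the limma test (adjusted p = 0.41), and its 95% interval ran from 0.796-fold to 1.06-fold.

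**Figure D1:**
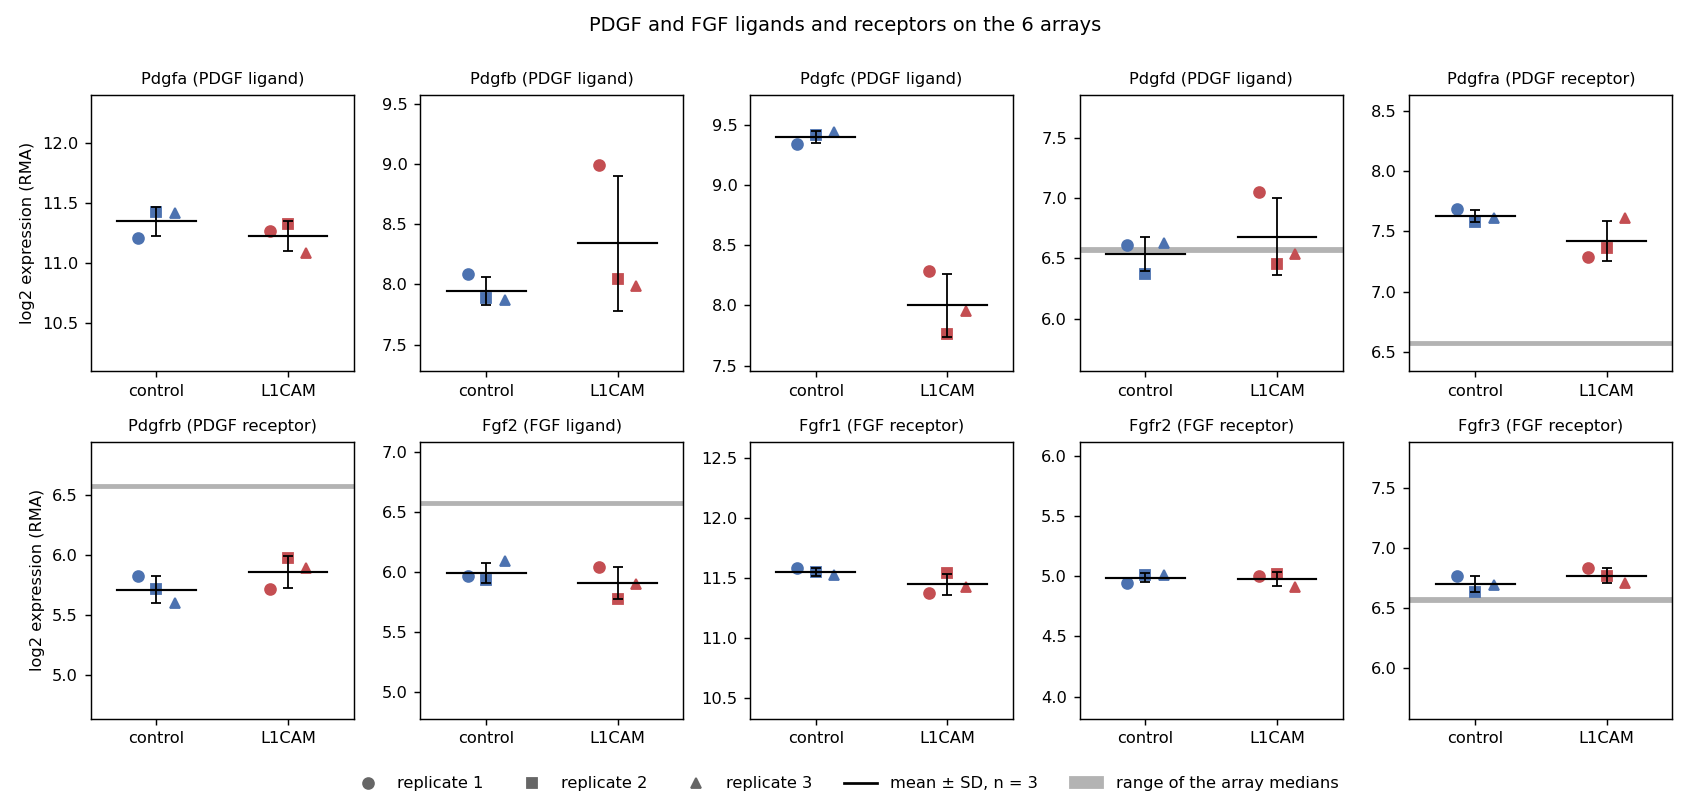
Log2 expression values (RMA, vertical axis) of the 10 members on the 3 control arrays (blue) and 3 L1CAM arrays (red), with the replicate number as the marker shape, mean ± SD as black bars, and the range of the array medians in grey where it falls inside a panel. All panels span the same number of log2 units; Pdgfc is the only member whose groups do not overlap, and Pdgfb and Pdgfd have L1CAM replicate 1 above the other arrays.

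Neither PDGF receptor passed the test. Pdgfra, the receptor of PDGF-A and PDGF-C, read 7.69, 7.58 and 7.62 on the control arrays and 7.29, 7.36 and 7.61 on L1CAM replicates 1, 2 and 3. Replicates 1 and 2 lay below all control arrays and replicate 3 among them. The difference was -0.21 (SE 0.09), with an unadjusted p of 0.0479 and a limma adjusted p of 0.17. Its adjusted p stayed above the threshold whichever array was left out. It came closest without L1CAM replicate 3, at a difference of -0.30 and a limma adjusted p of 0.0516.

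Pdgfrb, the receptor of pericytes and smooth muscle, read 5.82, 5.71 and 5.60 on the control arrays and 5.72, 5.98 and 5.89 on the L1CAM arrays, below the array median on all 6. The groups overlapped, with a difference of 0.15 (SE 0.09, limma adjusted p = 0.32). Its signal was not shown to be above background, so the interval of 0.964-fold to 1.28-fold describes the probe set more than the transcript.

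The labelled cell type was checked against marker lists, since both PDGF receptors are best known from mural cells and fibroblasts. All 12 endothelial markers lay above the array medians on all 6 arrays, among them Cdh5, Pecam1, Kdr and Tie1. Vwf and Cldn5 lay only just above, with means of 6.84 and 6.86 in the L1CAM arrays. In the list of pericyte and smooth muscle markers 3 of 12 lay above on all arrays, namely Myh11, Notch3 and Cox4i2. Rgs5, Cspg4, Des and Tagln lay below the medians on every array. The mean level of that list ran from 6.02 to 6.04 in the control arrays and from 6.01 to 6.10 in the L1CAM arrays. In it 1 of 12 was called higher, against 6.85% of all genes, the contractile protein gene Cnn1 (0.23, limma adjusted p = 0.033). Cnn1 lay below the array medians on all 6 arrays and, when arrays were left out, was called only without L1CAM replicate 1.

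Among fibroblast markers, 5 of 12 lay above the medians on all arrays, Pdgfra itself and the collagen genes Col1a1, Col1a2 and Col3a1 among them, while Dcn, Lum, Fap and Postn lay below on all. The mean level of the list was 5.74 to 5.79 in the control arrays and 5.82 to 5.89 in the L1CAM arrays. By limma 0 members were called. At an unadjusted p under 0.05 there were 2 of 12, against 29.0% of all genes. These were the matrix gene Mfap5 (0.92, limma adjusted p = 0.068) and Pdgfra. Without L1CAM replicate 1, limma called 1 of 12 members higher, in a fit that called 12.0% of all genes higher. The ranges of the list did not overlap, and in the same arrays Pdgfra was lower in the mean. Without Mfap5, an alternative chosen after its values were seen, the list's mean level was 5.76 to 5.81 in the control arrays and 5.76 to 5.82 in the L1CAM arrays, and the ranges overlapped. The part of such cells in the Pdgfra and Pdgfrb values was not tested. The mean level of the endothelial markers was 11.54 to 11.56 in the control arrays and 11.45 to 11.48 in the L1CAM arrays, ranges that did not overlap, and 10 of 12 were lower in the mean. Of these, the tight junction gene Cldn5 (-0.22, limma adjusted p = 0.045) was called lower. When arrays were left out, that call held only in the fit without L1CAM replicate 1. Eng, a TGF-beta co-receptor, differed by -0.18 (limma adjusted p = 0.056). Cdh5, Pecam1, Tek, Tie1, Erg, Esam and Emcn were not called. Like Cldn5 and Eng, they had every L1CAM array below every control array. Groups did not overlap, in either direction, for 34.6% of all genes. Kdr, Vwf and Egfl7 overlapped. The part of this shift in the member values was not tested. Epithelial and leukocyte lists had 1 of 7 and 3 of 8 genes above the medians on all arrays and 0 members called by limma. Each had 1 gene at an unadjusted p under 0.05, against 29.0% of all genes. The leukocyte genes above the medians were Cd68, Cd3e and Lyz2. Cd68 was bright, with means of 12.23 in control and 12.07 in L1CAM arrays. Lyz2 read 7.62, 8.54 and 8.56 on the control arrays and 8.40, 7.11 and 7.80 on L1CAM replicates 1, 2 and 3.

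The FGF ligand and the FGF receptors had small differences. Fgfr1, the main endothelial FGF receptor and a partner of L1CAM, read 11.59, 11.55 and 11.52 on the control arrays and 11.37, 11.54 and 11.43 on L1CAM replicates 1, 2 and 3. Replicate 2 lay within the control range and the other L1CAM arrays below it. The difference was -0.11 (SE 0.06, limma adjusted p = 0.31), and the 95% interval ran from 0.842-fold to 1.03-fold.

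Fgf2 read 5.96, 5.93 and 6.09 on the control arrays and 6.04, 5.77 and 5.90 on the L1CAM arrays. The groups overlapped, all 6 values lay below the array medians, and the difference was -0.09 (SE 0.08, limma adjusted p = 0.53). Fgfr2, a receptor best known from epithelia, lay at 4.95 to 5.01 in control and 4.91 to 5.02 in L1CAM arrays, close to the lower quartiles of the arrays (5.01 to 5.04). Its difference was -0.01 (SE 0.06, limma adjusted p = 0.93).

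Fgfr3, a receptor known for restraining bone growth, read 6.77, 6.63 and 6.69 on the control arrays and 6.83, 6.77 and 6.71 on the L1CAM arrays. Just above the array medians on all 6, it overlapped between groups, with a difference of 0.07 (SE 0.06, limma adjusted p = 0.51). The distance between L1CAM replicate 1 and the mean of the other L1CAM arrays was -0.11 for Fgfr1, 0.03 for Fgfr2 and 0.09 for Fgfr3. Over all genes the median absolute distance was 0.10. For the ligand Fgf2 the distance was wider than that, at 0.20.

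How large a change could have been missed differed between members. Of the 9 members not called, 7 had a 95% interval inside ± 0.5 on the log2 scale, or 1.41-fold in either direction. The exceptions were Pdgfb, with an upper bound of 1.95-fold, and Pdgfd, with 1.42-fold. These intervals are not adjusted for the number of genes, and a p above the threshold does not show that a gene was the same in both groups. Dim probe sets compress fold changes, which concerns Pdgfrb, Fgf2 and Fgfr2 (below the array medians on all arrays) and Pdgfd (above on 3). Fgfr3, just above the medians on all arrays, was of much the same brightness as Pdgfd. A filter that required 3 arrays above the median kept 7 of the 10 members.

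**Figure D2:**
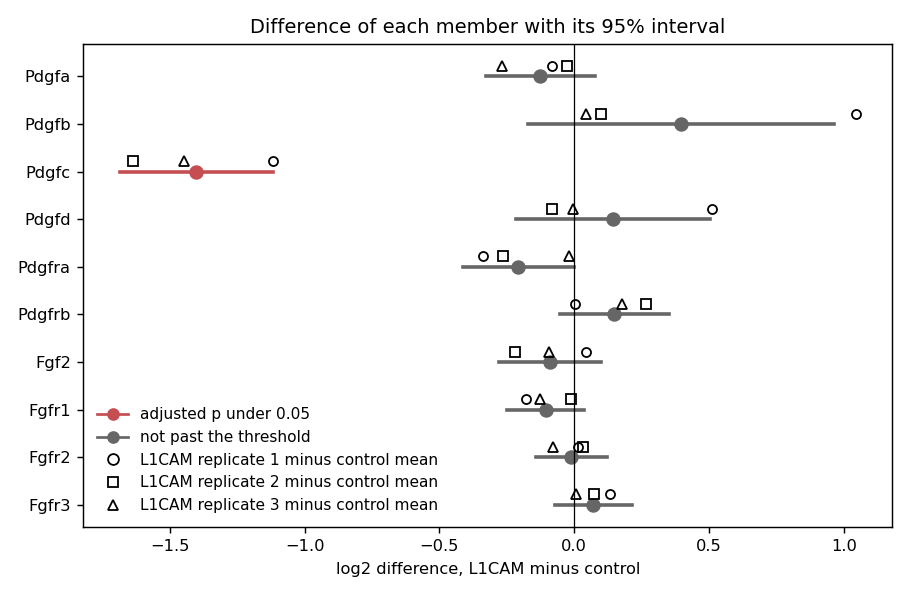
Log2 difference of each member between L1CAM and control cells (horizontal axis, filled points) with its 95% interval from the limma fit, and each L1CAM array minus the control mean as open symbols above it. The interval of Pdgfc lies between -1.68 and -1.12, and that of Pdgfb, whose L1CAM replicate 1 lies far from the other arrays, is the widest.

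The 2 other genes whose pattern over the 6 arrays was closest to Pdgfc were Kcnd3, a voltage-gated potassium channel gene, and Tmem252, a gene for a transmembrane protein. Likeness was the root mean square difference between profiles after each gene's own mean was subtracted, at 0.06 for Kcnd3 and 0.09 for Tmem252 on the log2 scale over 6 arrays. Kcnd3 read 8.64, 8.71 and 8.72 on the control arrays and 7.65, 7.20 and 7.27 on L1CAM replicates 1, 2 and 3. Tmem252 read 9.89, 10.15 and 10.11 against 8.81, 8.46 and 8.48. In both, as in Pdgfc, L1CAM replicate 1 was the highest array of its group and still below every control array. Their differences were -1.32 and -1.46, with limma adjusted p of 0.00071 and 0.000469. Both genes were picked for likeness to Pdgfc on these same arrays, so the shared pattern follows from the choice.

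**Figure D3:**
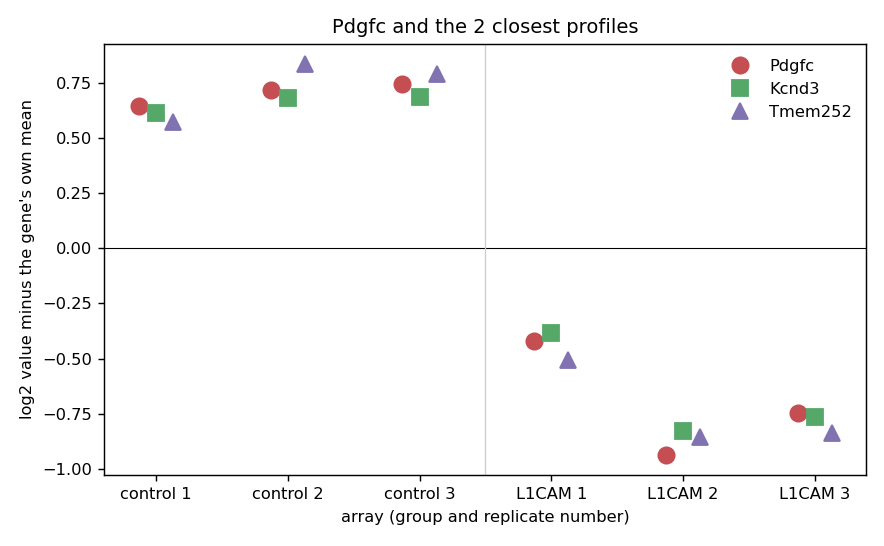
Log2 value minus the gene's own mean over the 6 arrays (vertical axis) on each array (horizontal axis) for Pdgfc, Kcnd3 and Tmem252. Kcnd3 and Tmem252 were picked for likeness to Pdgfc on these arrays. The 3 genes are high on all control arrays and low on all L1CAM arrays, with L1CAM replicate 1 the least low.

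Pdgfc lies on chromosome 3, as do Fgf2 and Kcnd3. Among the 5 protein-coding genes on either side of it in the RefSeq order (GRCm38.p6), 9 of 10 were measured and 2 fell, against 8.19% lower over all genes. Glrb, a subunit of the glycine receptor, fell by 0.46 (limma adjusted p = 0.0097), but lay below the array medians on all arrays. Tmem144 read 7.25, 7.21 and 7.23 on the control arrays and 6.81, 6.77 and 6.55 on the L1CAM arrays, a fall of 0.52 (limma adjusted p = 0.0053). Both falls are on the side before Pdgfc, and both held whichever array was left out. The other 7 neighbours, with differences from -0.27 to 0.16, did not pass, among them Ctso, the gene next after Pdgfc (-0.27, limma adjusted p = 0.18).

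Other genes of the PDGF and FGF pathways were taken from 7 lists with 109 entries, of which 102 were analysed here. Of these, 2 rose and 13 fell, or 15 of 102 against 15.0% of all genes, and their median difference was 0.00. Leaving out control replicate 1, 2 or 3 gave 11, 7 and 7 calls, against 9.07%, 5.18% and 5.34% of all genes in the same fits. Leaving out L1CAM replicate 1, 2 or 3 gave 30, 9 and 6, against 24.8%, 6.85% and 6.21% of all genes. In all 6 of these fits 6 of the 15 genes stayed called, namely Fgf1, Flrt3, Ext1, Nrp1, Il17rd and Etv1. In the next paragraphs a call that is not one of these 6 was lost in at least 1 of the fits.

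Of the 21 other FGF ligands, 1 fell and 0 rose, and 4 lay above the array medians on all arrays. The gene that fell was Fgf1, acidic FGF, a ligand of all FGF receptors. It read 6.54, 6.58 and 6.60 on the control arrays and 6.24, 6.10 and 6.17 on the L1CAM arrays, a difference of -0.40 (SE 0.06, limma adjusted p = 0.005). The groups did not overlap, but the L1CAM values lay below the array medians, so the size of the fall is not exact.

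Of 11 other FGF receptors, binding proteins and co-receptors, 2 fell and 1 rose. Flrt3, a membrane protein that binds FGF receptors, read 9.92, 9.90 and 9.83 on the control arrays and 9.23, 9.29 and 9.16 on the L1CAM arrays. It was 1.58-fold lower (-0.66, SE 0.06, limma adjusted p = 0.000855), with tight and separate groups. Fgfrl1, an FGF receptor without a kinase domain, fell by 0.47 (limma adjusted p = 0.013), a call lost without control replicate 2 or L1CAM replicate 3. Cdh2, N-cadherin, a partner of FGFR1, rose by 0.66 (limma adjusted p = 0.0145), a call held only without control replicate 1 or L1CAM replicate 1 when arrays were left out. The median of the list was -0.02.

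Heparan sulfate presents FGF to its receptors, and of 20 genes for its carriers and modifying enzymes 1 rose and 2 fell, with a median of -0.06. Ext1, which polymerises the chain, read 8.75, 8.69 and 8.70 on the control arrays and 9.04, 9.11 and 9.10 on the L1CAM arrays, a rise of 0.37 (SE 0.05, limma adjusted p = 0.0048). Sulf2, which removes sulfate groups from the chain outside the cell, fell by 0.62 (limma adjusted p = 0.031). Its L1CAM arrays read 9.55, 8.97 and 8.97, so replicate 1 lay nearer to the control arrays (9.76 to 9.81). Sdc1, syndecan-1, fell by 0.23 (limma adjusted p = 0.0456). When arrays were left out, Sulf2 was called only without L1CAM replicate 1 and Sdc1 only without L1CAM replicate 2.

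Of 8 genes for PDGF processing and co-receptors, 2 fell and 0 rose, with a median of -0.04. Nrp1, a co-receptor of PDGF and VEGF, fell by 0.38 (SE 0.06, limma adjusted p = 0.0084), from 11.66, 11.57 and 11.51 to 11.26, 11.21 and 11.15. Plau, urokinase, which can cut PDGF-D, fell by 0.22 (limma adjusted p = 0.0347) and was called only without L1CAM replicate 1 when arrays were left out. Plat, the tissue plasminogen activator that cuts PDGF-C, is given because of its pattern and was picked after its values were seen. It read 7.50, 7.81 and 7.86 on the control arrays and 8.62, 7.40 and 7.40 on L1CAM replicates 1, 2 and 3 (0.08, limma adjusted p = 0.90). L1CAM replicate 1 was the highest array for Plat, as for Pdgfb and Pdgfd.

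Inside the cell, 2 of 19 receptor adaptors and phosphatases fell and 0 rose, with a median of -0.01. These were Shc1, an adaptor of receptor tyrosine kinases (-0.35, limma adjusted p = 0.018), and Ptprj, a receptor phosphatase that acts on PDGF receptor beta (-0.31, limma adjusted p = 0.046). When arrays were left out, Shc1 was called only without L1CAM replicate 1, and Ptprj only without L1CAM replicate 1 or 2. Ptprj had 2 probe sets, of which only the brighter is given here. In the RAS-ERK cascade 4 of 9 genes were analysed here and limma called 0. At an unadjusted p under 0.05 there were 2, against 29.0% of all genes. These were Braf (-0.23, limma adjusted p = 0.067) and Nras (0.18, limma adjusted p = 0.12).

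Of 19 feedback and target genes of FGF and ERK signalling, 4 fell and 0 rose, although the median of the list was 0.09. Etv1, an ETS transcription factor induced by FGF, read 7.53, 7.76 and 7.52 on the control arrays and 6.75, 6.57 and 6.61 on the L1CAM arrays. It was 1.94-fold lower (-0.96, SE 0.08, limma adjusted p = 0.000805), the largest difference among the 102 pathway genes. Etv5, its relative, fell by 0.46 (limma adjusted p = 0.020), while the third of that family, Etv4, measured 0.16 (limma adjusted p = 0.14). Il17rd, an inhibitor of FGF signalling also called Sef, fell by 0.41 (limma adjusted p = 0.0095), and the cyclin gene Ccnd1 by 0.31 (limma adjusted p = 0.018). When arrays were left out, Etv5 was called only without control replicate 2 or L1CAM replicate 1, and Ccnd1 only without control replicate 1 or L1CAM replicate 1. Etv4 and Ccnd1 were named after their values were seen. Etv1, Etv5 and Il17rd each had 2 probe sets, of which only the brighter is given here. The one kept for Etv1, a gene on chromosome 12, is numbered between those of Fgfr4 and Fgf10, on chromosome 13. The one kept for Etv5, a gene on chromosome 16, is numbered beside those of Fgf22 and Map2k2, on chromosome 10. Whether these probe sets read Etv1 and Etv5 was not tested, so both falls are those of the probe sets. With the probe sets of each gene averaged, 14 pathway genes were called, 12 of them lower.

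The sprouty and dual-specificity phosphatase genes, which damp the ERK pathway and are induced by it, did not pass. Dusp6 read 12.15, 12.31 and 12.32 on the control arrays and 12.20, 12.40 and 12.41 on the L1CAM arrays (0.07, limma adjusted p = 0.61), and Spry4 measured 0.07 (limma adjusted p = 0.63). Without L1CAM replicate 1, 7 of the 19 genes were called higher and 4 lower, in a fit that called 12.0% of all genes higher and 12.9% lower, with Fosl1 at 0.81, Dusp5 at 0.58, Egr1 at 0.52 and Dusp4 at 0.46 among the higher. In the fit with all arrays these 4 genes had limma adjusted p of 0.063, 0.17, 0.42 and 0.15. The genes named in this paragraph were chosen after their values were seen.

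**Figure D4:**
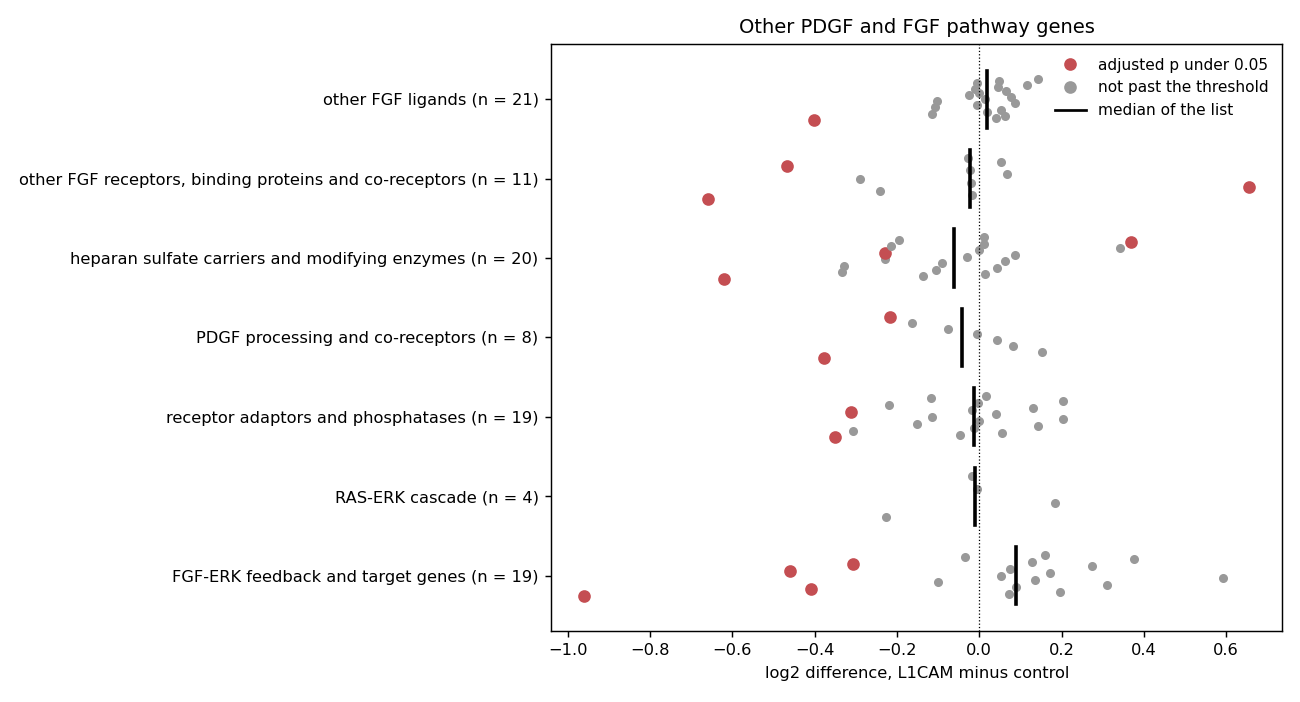
Log2 difference between L1CAM and control cells (horizontal axis) of each of the 102 other pathway genes, by list (vertical axis), with called genes in red, the others in grey and the median of each list as a black bar. The medians lie between -0.06 and 0.09, and 13 of the 15 called genes lie on the lower side.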

How the data were processed

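The study measured total RNA of mouse lung endothelial cells on 6 arrays, 3 per group, with groups taken from the sample titles. Per the submitters' processing notes, the authors ran RMA in Affymetrix Expression Console 1.1, and the deposited table holds the resulting log2 values, 1 per probe set and array. RMA normalizes between arrays on the assumption that most probe sets do not differ. The genome build is not given in the sources used here, nor are other settings. Scanner files and detection calls were not used here, and 3 arrays per group limit the precision.

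Of 35512 probe sets, 21789 had 1 gene symbol, 1621 several and 12102 none in the platform annotation. Symbols were checked through Entrez identifiers against the GRCm38.p6 RefSeq gene table, which changed 0 of them. Per gene, the probe set with the highest mean was kept. Differences (L1CAM minus control) were fitted across 19938 genes in R 4.3.3 with the limma package, version 3.58.1 (lmFit, eBayes), group as the only term, two-sided, with Benjamini-Hochberg adjustment over all genes and a threshold of 0.05. SE is the moderated standard error. An exact permutation test of 3 against 3 cannot go below p = 0.10 and was not used. Scripts were tested on simulated data.

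The members and lists were chosen with earlier results of these data known. The text names all members, L1cam, and of each pathway list up to 3 called genes per direction or, where none passed, the 2 with the smallest p. It also names the 2 genes closest in profile to each called member. The alternatives tried were a repeated quantile normalization, centring arrays on their medians, dropping genes that exceeded the array median on fewer than 3 arrays, averaging the probe sets of a gene, testing each probe set, an intensity trend in the variance, the replicate number as a block, and leaving out each array. Figures were made with Python 3.11.15 and matplotlib 3.10.9.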

Additional observations from a re-analysis of the deposited data

How the results depend on the processing

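Pdgfc was the single member called under every alternative run, and its difference ran from -1.54 to -1.28. The other 9 members were called in none of them, where they could be tested. The sign of 2 small differences turned when an array was left out: Fgfr2 ran from -0.032 to 0.023, and Pdgfd from -0.042 (without L1CAM replicate 1) to 0.25. Leaving out arrays moved the number of all genes called from 1033 to 4952 and that of pathway genes from 6 to 30, against 2999 and 15 with all arrays. The other alternatives kept these counts within 1.5 times, and the filter on dim probe sets left Pdgfrb, Fgf2 and Fgfr2 untested. Across genes, the deviations of same-numbered arrays from their group means correlated at -0.10, -0.10 and -0.03. With 3 arrays per group, these values cannot decide whether the replicate numbers paired the arrays. With the replicate number as a block, 1 member, 13 pathway genes and 2067 genes were called.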
